A study of Mus musculus with 4 samples.

Results

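The genes described here encode the cofactors of HOX proteins: Meis1, Meis2 and Meis3, Pbx2, Pbx3 and Pbx4, and Pknox1 and Pknox2. These 8 genes, out of 21883 protein-coding genes with positions on the assembled chromosomes, were taken by name as members of the Meis, Pbx and Pknox families. The choice by name used no measured value as a criterion, though earlier results of these data were known when it was made. The chromatin around each gene was described from 100 kb before to 100 kb after it. Every peak there was assigned to a gene end (within 1 kb of either annotated end), to the rest of the gene body, or to the DNA outside, in that order of priority and by an overlap of at least 1 bp.

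The data came from ATAC-seq, which marks accessible DNA by where the transposase Tn5 inserts adapters. All 4 libraries were made from lungs of wild-type mouse embryos at E15.5, snap-frozen per the labels, with 60000 nuclei tagmented per sample, and they formed 1 group. No treated, mutant or control group existed, so no difference between groups was tested. Values of the cofactor genes are given beside the same value over all protein-coding genes where that was computed. It was not computed for body and outside densities, gaps, shares of peaks by place or regions at the ends of other genes. The labels named no separate embryos or litters, so an SD over the 4 libraries reflects only how these samples differed, and that difference may be technical.

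PBX proteins are homeodomain proteins of the TALE class that bind DNA together with HOX proteins and sharpen the sites these select. MEIS and PKNOX proteins, of the same class, bind PBX outside its homeodomain and help bring and keep it in the nucleus. In the developing lung, HOX proteins act largely in the mesenchyme around the branching airways.

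Replicate 1 stood apart from the others. It listed 134503 peaks, against 186199, 211678 and 192842 in replicates 2, 3 and 4, with a median fold enrichment of 8.99, against 3.86, 3.90 and 3.73. Peaks over 5 kb wide numbered 100 in replicate 1, against 1615, 2123 and 2541 in the others. Names inside the lists held the word Frais (French for fresh) in replicate 1 and Frozen in replicates 2 to 4, whereas the labels gave snap-freezing for all; the part of this difference in any result was not tested. Read depth was unknown from the lists. Peaks were therefore ranked by the percentile of their fold within their own list, where 100 is the strongest peak, and deposited folds are given only as a description. All 12 marker genes of lung epithelium, mesenchyme, endothelium and mesothelium had a gene-end peak in every library, against 66.7% of all protein-coding genes. Of 6 marker genes of blood and other organs, 4 also had one, close to that share, while Ptprc and Alb had none in any library. A gene-end peak alone thus did not single out lung genes. In whole tissue, a site open in few cells and a site weakly open in many cannot be told apart.

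Promoter sequences were found for 5 of the 8 genes, Meis1, Meis2, Meis3, Pbx2 and Pbx4, in the RefSeq table of GRCm38.p6, the assembly behind mm10. They run from 250 bases before to 50 bases after the annotated transcription start. Peaks touched all 5 in every library, against 63.4% of 17491 genes with a promoter sequence in that table. At Meis1, Meis3 and Pbx4 all 4 libraries also placed their peak summit inside the sequence, and these 3 are printed because the summits of every library can be placed on their bases. Capitals mark the bases from the first to the last of the 4 summits, each sequence reads 5′ to 3′ in the direction of the gene, and the last 50 bases begin at the start.
Meis1, chr11:19018920-19019219, minus strand: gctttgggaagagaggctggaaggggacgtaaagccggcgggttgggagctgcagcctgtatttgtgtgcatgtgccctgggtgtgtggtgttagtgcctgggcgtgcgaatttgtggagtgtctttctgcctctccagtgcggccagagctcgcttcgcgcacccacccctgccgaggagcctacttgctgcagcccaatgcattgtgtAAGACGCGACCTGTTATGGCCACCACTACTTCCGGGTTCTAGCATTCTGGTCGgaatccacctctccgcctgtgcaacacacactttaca
Meis3, chr7:16175145-16175444, plus strand: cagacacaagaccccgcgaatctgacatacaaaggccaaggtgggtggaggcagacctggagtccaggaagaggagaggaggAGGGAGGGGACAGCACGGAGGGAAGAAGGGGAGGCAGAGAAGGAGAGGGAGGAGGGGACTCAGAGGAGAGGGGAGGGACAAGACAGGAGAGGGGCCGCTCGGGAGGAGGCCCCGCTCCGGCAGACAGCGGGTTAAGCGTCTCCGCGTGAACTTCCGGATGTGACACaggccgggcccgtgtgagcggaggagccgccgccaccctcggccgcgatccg
Pbx4, chr8:69832374-69832673, plus strand: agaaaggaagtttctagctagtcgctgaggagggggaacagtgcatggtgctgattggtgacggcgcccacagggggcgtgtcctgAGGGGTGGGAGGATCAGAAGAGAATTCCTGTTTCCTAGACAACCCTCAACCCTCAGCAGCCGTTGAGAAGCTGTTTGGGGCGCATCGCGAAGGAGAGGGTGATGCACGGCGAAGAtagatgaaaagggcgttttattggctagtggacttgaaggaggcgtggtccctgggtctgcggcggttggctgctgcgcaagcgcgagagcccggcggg
The 4 Meis1 summits fell within 53 bases around the start, with those of replicates 1 to 4 at −39, −39, −40 and 12 bases from it. The Meis3 summits spread over 166 bases, at −83, −91, −3 and −168. Those of Pbx4 spread over 115 bases, at −111, −164, −112 and −50, all before the start. At Meis2 and Pbx2 only 1 library had its summit inside the promoter sequence, replicate 4 at Meis2 and replicate 1 at Pbx2.

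The promoters were searched on both strands for 3 short motifs. The half-site bound by MEIS and PKNOX proteins, TGACAG, was in none of the 5 and in 18.7% of all 21262 promoters. The joint PBX-HOX site, TGATTNAT, was likewise in none, and in 2.75% of promoters. The inverted CCAAT box, ATTGG, which NF-Y binds, matched once at Meis1, 54 bases before the start, once at Meis2, 210 bases before it, and at 2 places at Pbx4, 197 and 30 bases before it, against 38.2% of promoters with at least 1 match. CpG dinucleotides numbered 15 at Meis1, 13 at Meis2, 21 at Meis3, 29 at Pbx2 and 19 at Pbx4, beside a median of 13 over all promoters. The Pbx2 sequence was also the richest of the 5 in G and C, at 76.0%, beside a median of 56.3%. A match describes the letters of these windows and does not show binding.

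At the gene ends, all 8 cofactor genes had a peak in every library, against 66.7% of all protein-coding genes (14598 of 21883). Without replicate 1 the count was 8 again, against 70.4%. With the stricter condition that the summit itself lie in the window, 4 of the 8 qualified in every library, namely Meis1, Pbx4, Pknox1 and Pknox2, against 60.5%. The strongest gene-end peak had a mean percentile between 92.3 and 99.8 in the 8 genes, with a median of 96.2, beside a median of 94.5 over the 14598 genes with such a peak in every library. By this measure 7 of the 8 lay above that median and Meis3 below it. For Pbx2 this rested on broad peaks with summits outside the gene, described with that gene, and its replicate 1 value of 90.8 was below the median. With the summit required to lie in the window, Meis2 had values in replicates 1 and 4 only, 64.4 and 34.3 (mean 49.3). Both came from peaks at the end of the gene away from its promoter.

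Among the Meis genes, Meis1, which acts in blood, limb and heart development, had its strongest gene-end peak at percentiles of 96.1, 96.8, 97.2 and 95.5 in replicates 1 to 4 (mean 96.4 ± 0.747, SD, n = 4). The fold values deposited for these peaks were 103, 31.2, 27.0 and 21.2. In replicates 1 to 3 this was the peak at the promoter printed above. In replicate 4 it was a peak at the opposite end of the gene, on chromosome 11 from 18874758 to 18879556, and the promoter peak of that library was at percentile 94.8. Merged over the libraries, each end of Meis1 was touched by a region with peaks of every library, at mean percentiles of 96.2 for the promoter end and 95.7 for the other. At the other end no peak of replicate 2 itself reached the 1 kb window. Replicate 1 had a peak at 47.3 in that window, and its peak at 94.4 lay beyond it. The summit of the replicate 4 peak lay 2819 bp outside the gene. The annotated long non-coding RNA Gm16141 has an end in the region at the promoter.

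Meis2, which acts in neural crest, limb and heart development, had a gene-end peak at percentiles of 94.1, 96.3, 95.8 and 95.1 (mean 95.3 ± 0.967, SD, n = 4). Its 4 summits lay within 32 bp of each other but 1718 to 1750 bp inside the annotated end, and so outside the 1 kb window that the peaks touched. The transcription start of Meis2 in the promoter table is 116064619, further into the gene. The promoter itself was touched by weaker peaks, at percentiles of 68.5, 83.8, 87.4 and 86.7. The strongest peak of this gene was thus not the one over its tabulated start, and the region also held an end of the long non-coding RNA G630016G05Rik.

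Meis3, known best from hindbrain patterning in frogs and zebrafish, had the lowest gene-end percentiles, at 90.5, 92.2, 93.5 and 93.0 (mean 92.3 ± 1.31, SD, n = 4). No summit fell within 1 kb of an annotated end. They lay 1215 to 1380 bp inside the annotated start, within the promoter sequence printed above, whose start is 16175395. For this gene the outermost annotated coordinate and the start in the promoter table were different places, and the peaks lay at the start in the table.

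Pbx2, expressed in many tissues, gave the most uneven values of the Pbx genes. Its strongest gene-end peak was at percentiles of 90.8, 98.9, 99.96 and 99.97 (mean 97.4 ± 4.45, SD, n = 4), so replicate 1 was far below the rest. The peak of replicate 1 was 2877 bp wide with its summit 91 bp from the annotated start. Those of replicates 2 to 4 were 16983, 25260 and 20333 bp wide, with summits 4792, 6496 and 6530 bp outside the gene. They joined Pbx2 to the ends of Notch4, Gpsm3, Ager, Rnf5 and Agpat1 in 1 region of 27173 bp. The high percentiles of replicates 2 to 4 thus belonged to summits at neighbouring genes, and the value at the start of Pbx2 was available from replicate 1 alone.

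Pbx3, whose loss in mice causes failure of the central control of breathing soon after birth, had gene-end percentiles of 98.3, 98.8, 98.8 and 99.0 (mean 98.7 ± 0.319, SD, n = 4). The peaks had deposited folds of 158, 53.3, 44.8 and 52.6. Their summits lay 855, 881, 1072 and 886 bp outside the annotated end, so that replicate 3 missed the 1 kb window by its summit. Pbx4, which in mice is expressed chiefly in the testis, had a gene-end peak in every library, at percentiles of 94.1, 97.1, 97.6 and 95.6 (mean 96.1 ± 1.55, SD, n = 4). Its summits lay 16 to 98 bp from the outermost annotated coordinate, 69832476, and before the start in the promoter table, 69832624. Transcription was not measured, and a peak at the start does not show it.

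Pknox1, also called Prep1 and needed early in mouse development, had the highest values of all 8 genes, at percentiles of 99.6, 99.8, 99.9 and 99.9 (mean 99.8 ± 0.126, SD, n = 4). The deposited folds were 284, 96.9, 100.8 and 130.4, and the 4 summits lay within 12 bp of each other, 202 to 214 bp outside the annotated start. Of the genes with a gene-end peak in every library, 97.7% had a mean percentile at or below that of Pknox1. Pknox2, the related Prep2 gene, had percentiles of 92.8, 95.4, 96.2 and 96.3 (mean 95.2 ± 1.64, SD, n = 4), with summits 182 to 319 bp from the annotated end.

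Ordered by mean percentile, the genes ran Pknox1, Pbx3, Pbx2, Meis1, Pbx4, Meis2, Pknox2 and Meis3. Pknox1 exceeded Pbx3 by 1.07 points, more than their combined SD of 0.343, and Pknox2 exceeded Meis3 by 2.88 points, more than the combined SD of 2.096. The 5 other neighbouring pairs differed by less than their combined SD. The place of Pbx2 rested on replicates 2 to 4, whose summits lay outside the gene, and its replicate 1 value of 90.8 was below the mean of every other gene. The families were interleaved in this order, since each had a member among the first 4 and another among the last 4.

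**Figure D1:**
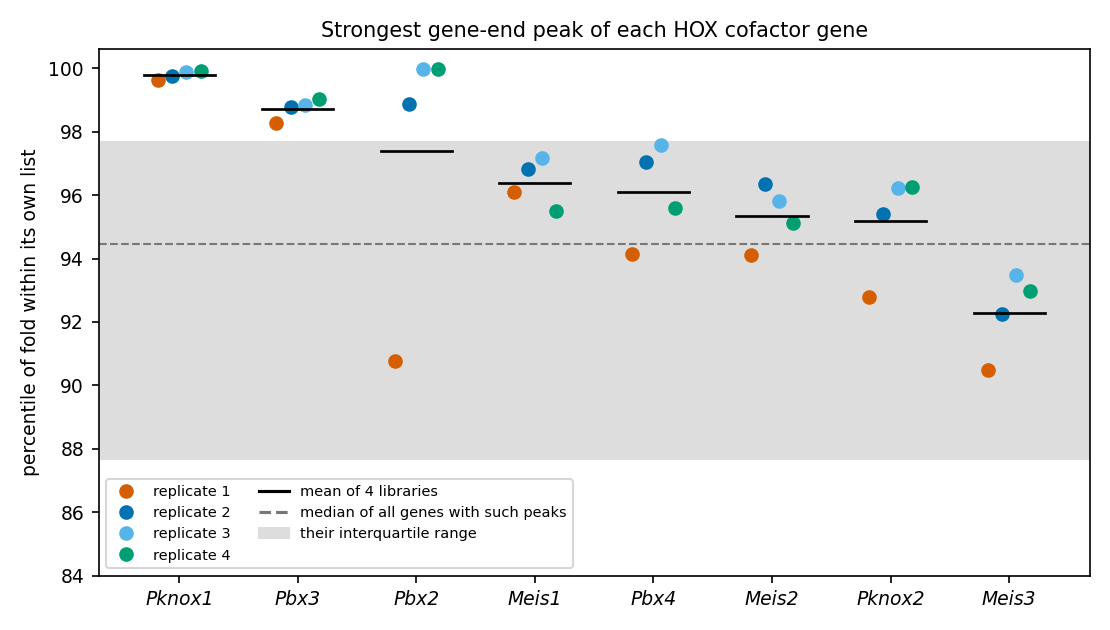
Percentile of fold within its own list (y axis, no unit) for the strongest gene-end peak of each gene (x axis), with a point for each library, a bar for the mean, a dashed line for the median of all genes with such a peak in every library (94.5) and a grey band for their interquartile range. Pknox1 sits between 99.6 and 99.9 in all 4 libraries, and the replicate 1 point of Pbx2, at 90.8, lies far below its other 3.

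Beyond the gene ends, the 8 genes fell into 4 long ones and 4 compact ones. Meis1 (139224 bp), Meis2 (206274 bp), Pbx3 (200589 bp) and Pknox2 (256364 bp) had 0, 1, 1 and 4 other protein-coding genes in reach. Meis3 (12499 bp), Pbx2 (5142 bp), Pbx4 (39817 bp) and Pknox1 (42972 bp) had 9, 12, 10 and 6. The median over all genes was 4. Peaks from different lists that overlapped or touched were joined into regions, and a region holding a peak from every library is called shared.

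Shared regions had a median density of 5.98 per 100 kb searched over the 8 cofactor genes, beside 4.02 over all protein-coding genes. Pbx4 had 6.67 per 100 kb (16 regions), Pknox1 6.59 (16), Pknox2 6.35 (29), Meis3 6.12 (13) and Pbx2 5.85 (12). Meis1 at 3.83 (13), Meis2 at 3.69 (15) and Pbx3 at 2.00 (8) lay below the median of all genes. Without replicate 1 the regions with peaks of all 3 other libraries had a median density of 9.31 per 100 kb, beside 5.52 over all genes. The same 3 genes again lay below it, at 4.42 for Meis1, 4.68 for Meis2 and 2.25 for Pbx3, and Pknox1 then had the highest density, at 13.99. The 12 shared regions of Pbx2 included that of 27173 bp at its gene end. Pbx2 had 10.8% of its searched bases covered by peaks of all 4 lists, the highest share of the 8 genes. The next were Pbx4 at 5.84% and Meis3 at 5.36%, and Pbx3 was lowest at 1.33%, beside a median of 2.84% over all genes.

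Gene density went with these values. The median density of shared regions over all protein-coding genes was 1.43 per 100 kb for genes with 0 or 1 other gene in reach, 3.40 with 2 to 4, 4.84 with 5 to 8 and 6.87 with 9 or more. Set against its own class, Pbx3 (2.00) was above 1.43, as were Meis1 (3.83) and Meis2 (3.69). Pknox2 (6.35) was above 3.40 and Pknox1 (6.59) above 4.84. Meis3 (6.12), Pbx2 (5.85) and Pbx4 (6.67) were below 6.87. The part of gene density in the members' values was not tested.

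In the long genes the shared regions could be followed along the gene body. Pknox2 had 21 in its body, or 8.26 per 100 kb of gene, against 3.54 per 100 kb in the DNA outside it. Meis1 had 6 in its body (4.37 per 100 kb, against 2.53 outside), Meis2 had 7 (3.43 against 3.03) and Pbx3 had 5 (2.52 against 1.01). Among those of Meis2, the region from 116060307 to 116065029 reached over the start in the promoter table, 116064619. It counted as body because it lay more than 1 kb from the annotated end. As counted, all 4 were denser inside than outside, but at Meis2 only because its promoter region counted as body. The same densities were not computed over other long genes, so whether this is particular to these 4 is unknown. Pknox2 had by count the most body regions of the 8 genes.

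The body regions of Pknox2 ran along nearly the whole gene, with a longest gap of 35.4 kb, or 13.8% of its length. In Meis2 the longest gap was 57.0 kb (27.6%), in Meis1 58.2 kb (41.8%) and in Pbx3 110 kb (54.9%). The strongest body region of Pknox2, on chromosome 9 from 37052504 to 37055736, was at percentiles of 97.2, 96.9, 97.4 and 96.4 in replicates 1 to 4 (mean 97.0 ± 0.430, SD, n = 4). This was above the 95.2 of the gene's own end, in each of the 4 libraries, and no other of the 8 genes had a shared body region with a mean percentile above that of its gene end. In all, 4 body regions of Pknox2 had a mean percentile above 90, and no body region of Meis1, Meis2 or Pbx3 did.

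Of the 6 body regions of Meis1, 3 lay within 20 kb of its promoter end and 1 within 20 kb of the other end. The strongest, on chromosome 11 from 19004845 to 19006697, was at percentiles of 90.95, 90.4, 87.9 and 90.2 (mean 89.9 ± 1.34, SD, n = 4). A region 6.87 kb outside the same end, from 19026522 to 19028676, was at 86.6, 92.6, 92.5 and 91.8 (mean 90.9 ± 2.85). No other protein-coding gene lay in reach of Meis1, so none of its outside regions stood at the end of another protein-coding gene.

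In Meis2 the strongest body region, on chromosome 2 from 115939014 to 115940084, was in mid-gene at percentiles of 85.1, 78.1, 82.9 and 85.3 (mean 82.9 ± 3.34, SD, n = 4). Its strongest outside region lay 86.2 kb away, from 115773699 to 115775015, at a mean of 80.4 ± 5.13. That region was inside the span of another protein-coding gene, BC052040. In Pbx3, 4 of the 5 body regions lay together in 8.94 kb, on chromosome 2 from 34249119 to 34258058, a group picked out after its values were seen. Their mean percentiles ranged from 47.4 to 86.7. The strongest of them, from 34257508 to 34258058, was at 93.2 in replicate 1, against 81.4, 85.5 and 86.7 in replicates 2 to 4.

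**Figure D2:**
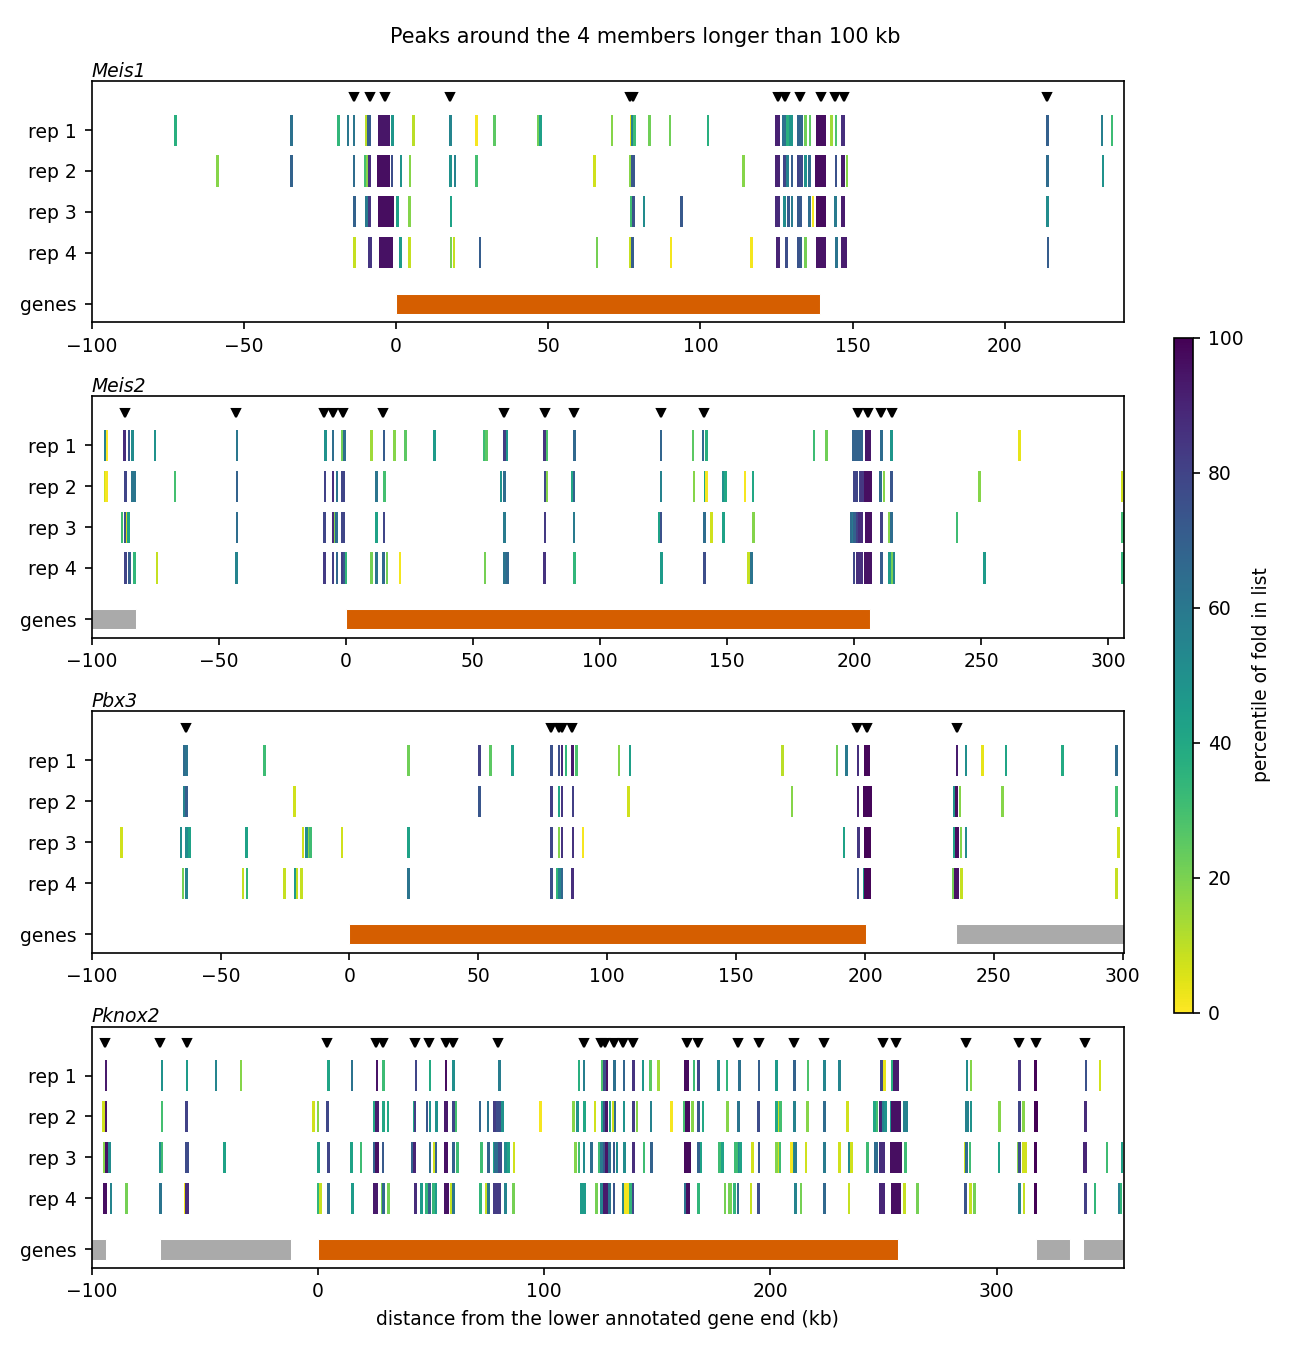
Peaks of each library (rows) around the 4 long genes, by distance in kb from the lower annotated gene end (x axis), coloured by percentile of fold in their list, with triangles at regions shared by all 4 libraries and bars for the gene itself (orange) and other protein-coding genes (grey); narrow peaks are drawn wider than they are. Pknox2 has shared regions along its body, whereas Pbx3 has 4 of its 5 body regions in 8.94 kb and a longest gap of 110 kb.

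In the compact genes most shared regions lay outside the gene, and many stood at the ends of other genes. Of the outside regions, 9 of 12 at Pbx4, 7 of 12 at Meis3, 6 of 11 at Pbx2 and 4 of 15 at Pknox1 were at another protein-coding gene's end. Pbx4 alone of these 4 had shared regions in its body, 3 in all, the strongest at a mean percentile of 82.9 ± 8.87 (SD, n = 4).

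The strongest outside region of 6 genes held the end of a neighbour. It was at the ends of Zfp541 and Napa for Meis3 (mean percentile 99.9), of Tmem218 for Pknox2 (99.4), of Zfp866 for Pbx4 (98.9), of Fkbpl and Atf6b for Pbx2 (98.7), of Wdr4 and Ndufv3 for Pknox1 (98.6) and of Mapkap1 for Pbx3 (95.1). For Meis1 and Meis2 no neighbouring coding gene end was involved. Away from all coding gene ends, the strongest outside region was at 94.9 ± 2.20 for Pknox1, 50.8 kb from the gene, and at 94.6 ± 1.85 for Pbx4, 63.0 kb away. It was at 90.1 ± 2.57 for Pbx2, 67.9 ± 12.1 for Meis3, 73.6 ± 13.2 for Pknox2 and 59.8 ± 8.67 for Pbx3 (SD, n = 4 each). Of these regions, those of Pknox1, Pbx4, Pbx2 and Meis3 lay inside the spans of Wdr4, Gatad2a, Tnxb and Dhx34. Which gene an outside region serves was not measured.

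**Figure D3:**
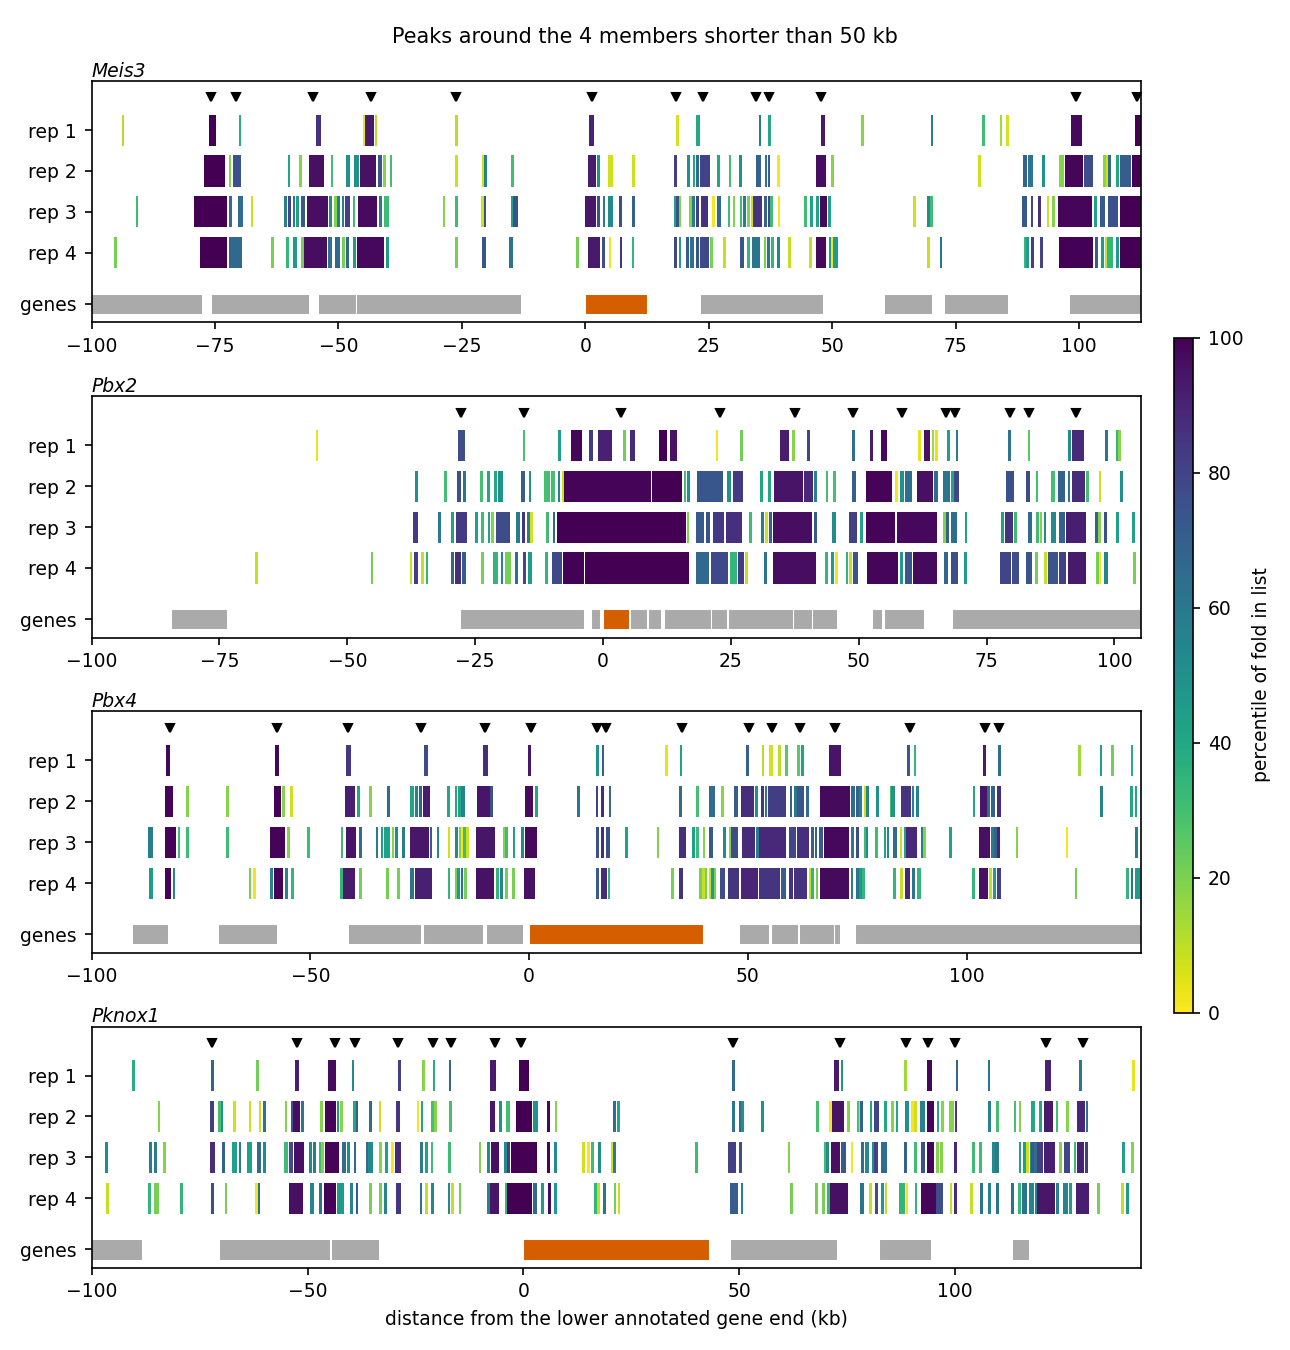
Peaks of each library (rows) around the 4 compact genes, by distance in kb from the lower annotated gene end (x axis), with colours, triangles and bars as in the map of the long genes; narrow peaks are drawn wider than they are. Many triangles stand at ends of grey neighbouring genes, and at Pbx2 the broad peaks of replicates 2 to 4 run across the gene and its neighbours.

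Counted per library, the 8 genes together had 244, 387, 448 and 400 peaks in reach in replicates 1 to 4 (a region between 2 genes of the set would count for each). Gene ends held 12, 10, 14 and 16 of them, gene bodies 94, 116, 122 and 105, and the outside 138, 261, 312 and 279. The share in gene bodies was 38.5% in replicate 1, against 30.0%, 27.2% and 26.2% in the others.

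Replicate 1 did not fall short evenly. Around Meis1 it listed 36 peaks, against 31, 23 and 22 in replicates 2, 3 and 4, and around Pbx3 26, against 17, 25 and 21. Meis2 had 34, 36, 32 and 34 peaks, nearly the same in every library. At these 3 genes replicate 1 had as many peaks as the mean of the others or more, with ratios of 1.42, 1.24 and 1, beside a median ratio of 0.561 over 21135 genes with peaks in replicates 2 to 4.

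At 3 of the compact genes replicate 1 fell further short than at most genes. Around Pknox1 replicate 1 listed 22 peaks, against 73, 87 and 76, a ratio of 0.280. Around Meis3 it listed 21, against 50, 70 and 58 (0.354), and around Pbx4 26, against 60, 75 and 67 (0.386). The compact Pbx2 had 32, against 49, 51 and 53, and the long Pknox2 had 47, against 71, 85 and 69. Both ratios were 0.627, slightly above the median of all genes. In the gene bodies of Meis3 and Pknox1 replicate 1 had 0 peaks, against 4, 5 and 4 and against 6, 9 and 9.

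Over all genes the ratio went down with the number of neighbours. The median ratio was 0.818 for genes with 0 or 1 other coding gene in reach, 0.614 with 2 to 4, 0.516 with 5 to 8 and 0.462 with 9 or more. Meis1, Pbx3, Meis2, Pknox2 and Pbx2 lay above the median of their class, Pknox2 only slightly, and Meis3, Pbx4 and Pknox1 lay below it. Pknox1 was also below the 10th percentile of its class, 0.333. When every list was shortened to its 134503 strongest peaks by fold, the ratios were 1.90 at Pbx3, 1.89 at Meis1 and 1.31 at Meis2, and the lowest was again that of Pknox1 (0.400). That of Pknox2 was then 0.986, that of Pbx2 0.774, that of Pbx4 0.565 and that of Meis3 0.521. The same genes as before were thus at or above 1. The median ratio over all genes was not computed for the shortened lists.

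**Figure D4:**
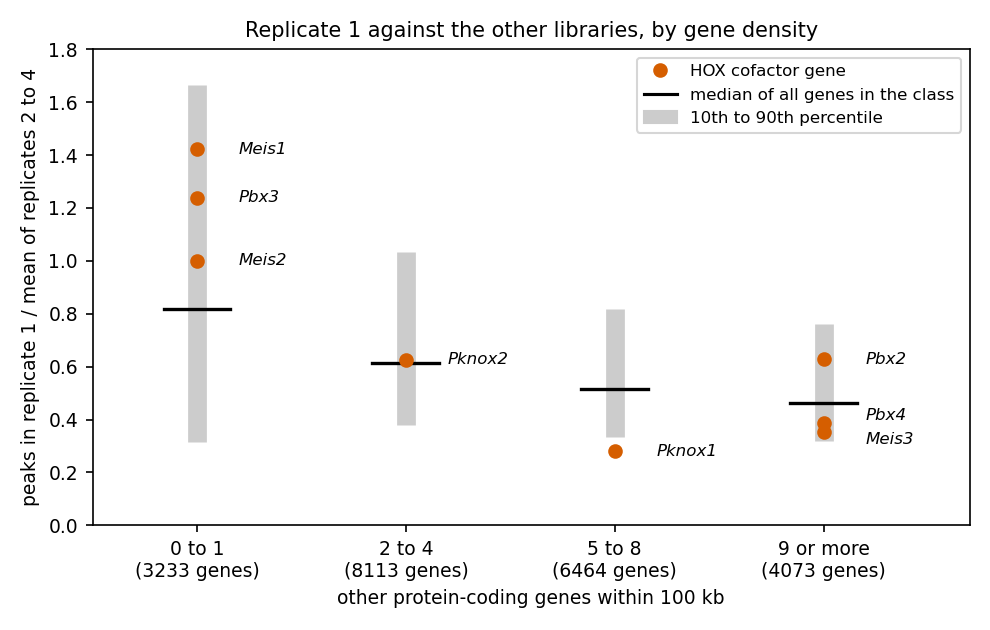
Peaks in reach in replicate 1 divided by the mean of replicates 2 to 4 (y axis, ratio) for each cofactor gene (points), by the number of other protein-coding genes within 100 kb (x axis), with the median (line) and 10th to 90th percentile (grey) of all genes in the class. Meis1, Pbx3 and Meis2 sit at 1 or above, and Pknox1 sits at 0.280, below the grey range.

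Single regions were also divided. Of 48 merged regions around Meis1, 13 came from replicate 1 alone and 1 from replicates 2, 3 and 4 without replicate 1. Pbx3 had 13 and 1 of 51. Pknox1 had 3 and 18 of 109, and Meis3 had 5 and 14 of 71. Over all 307572 regions of the series these 2 patterns made up 8.85% and 8.24%, against 27.1% and 2.08% at Meis1 and 2.75% and 16.5% at Pknox1.

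A region inside the body of Pknox1, on chromosome 17 from 31570179 to 31570872, was singled out after its values were seen. It had no peak in replicate 1 and deposited folds of 40.3, 43.7 and 28.0 in replicates 2, 3 and 4, at percentiles of 97.9, 98.8 and 97.0. Of the 25355 regions with peaks of replicates 2 to 4 and none of replicate 1, it had the highest mean percentile, 97.9. Whether it lies in an exon or an intron was not analysed here, and the reason for its absence from replicate 1 was not tested. The equivalent strongest region at the other 7 genes had mean percentiles of 15.1 to 77.6.

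**Figure D5:**
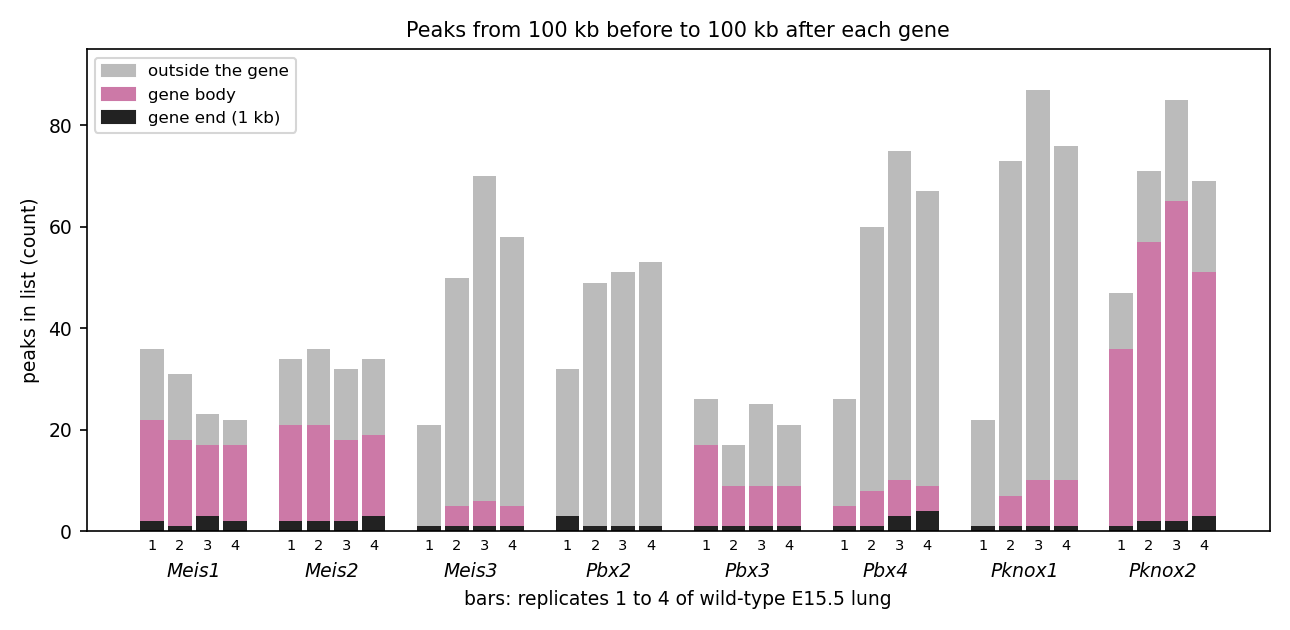
Number of peaks (y axis, count) from 100 kb before to 100 kb after each gene, with a bar for each of replicates 1 to 4, divided into gene end, gene body and outside. At Meis1 and Pbx3 the replicate 1 bar (36 and 26) is the tallest, and at Meis2 (34) it is close to the others. At Pknox1 it reaches 22, against 73 to 87.

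Other genes of the TALE class and a list of co-regulators were described for comparison. All 9 other TALE homeodomain genes had a gene-end peak in every library, against the 66.7% of all genes, with a median density of 3.44 shared regions per 100 kb. Among them the density was lowest at Irx6 (1.45) and highest at Tgif1 (8.12), which encodes a repressor of TGF-beta and retinoid signalling. All 7 co-regulator genes chosen, among them those of the acetyltransferases CBP and p300 and of histone deacetylases, also had a gene-end peak in every library, and their median density was 4.51. It was lowest at Crebbp (2.41) and highest at Pbxip1 (9.33), whose product binds PBX proteins. The 8 cofactor genes, at a median of 5.98, ranged from 2.00 to 6.67, inside the range of the other TALE genes.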

How the data were processed

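Open chromatin was measured in 4 ATAC-seq libraries of 1 group, and the authors deposited 1 list of narrow peaks per library, so peaks were not pooled over replicates. The submitters' processing notes name the build mm10, MACS3 3.0.1, Bowtie2 2.5.2, and deepTools, SAMtools 1.18, FastQC 0.12.1, bedtools 2.31.0 and Trim Galore. Their order and parameters, duplicate removal and the Tn5 shift are not given in the sources used here. The deposited fold enrichment is the authors' ratio for each peak and was used only to rank or describe peaks within a list. The deposited −log10 q was used for a stricter threshold of 5, and the deposited −log10 p and score were not used further. The deposited summit offset located each summit.

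Peaks on chromosomes 1 to 19, X and Y were kept, leaving out 1245 to 1814 per library. Gene positions came from RefSeq for GRCm38.p6. Percentiles, counts, merged regions and densities were computed with Python 3.11.15, pandas 2.3.3 and numpy 2.4.6, and the counting was checked on simulated data. With 1 group no contrast between conditions was tested. The only test was the Dixon outlier test with a critical value of 0.829, applied to 40 groups of 4 library values. The genes and lists were chosen with earlier results of these data known. Named were all 8 genes and their strongest end, body and outside regions. Neighbours were named where they had an end in those regions or spanned an outside one. In the comparison lists the genes of highest and lowest density were named. The alternatives were stricter or equal-length lists, each library left out, placement by summit, other windows and reach, and other rules for sharing. Depth is unknown, so precision is given only by the spread between libraries. Sequences were searched as printed in RefSeq; Pbx3, Pknox1 and Pknox2 were not matched. A further marker list is not reported here.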

Additional observations from a re-analysis of the deposited data

Results flagged for a closer look

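Of 40 groups of 4 library values examined for a sample far from the other 3, 4 were flagged. Chance flags about 1 in 20 groups of continuous values, a rate that does not carry over to 3 of these 4, which are small counts with the other 3 libraries tied. The strongest gene-end peak of Pbx2 was at percentile 90.8 in replicate 1, far from the other 3 at 98.9 to 99.97. Pbx2 also had 3 gene-end peaks in replicate 1, far from the 1 in each of the others. Pbx3 had 16 gene-body peaks in replicate 1, against 8 in each of the others. Meis2 had 3 gene-end peaks in replicate 4, against 2 in each of the others. So 3 of the 4 flags fell on replicate 1. At Pbx2 the 1 gene-end peak of each of replicates 2 to 4, 16983 to 25260 bp wide, spanned the whole gene with its summit outside it. The causes of the flags were not tested.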

How the results depend on the processing

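The count of 8 genes with a gene-end peak in every library was 4 by summit and 7 with a window of 0.5 kb, and 8 under the other alternatives run, the lowest and highest without 1 library both being 8. The median density of shared regions (5.98) moved to 9.31 without replicate 1 and to 9.99 with at least 3 of 4 libraries; leaving out 1 library gave 6.23 to 9.31. Peaks in reach per library (369.75) were 197.25 at a −log10 q of 5 or more, 277.75 with lists of equal length and 268 within 50 kb, and 343.7 to 411.7 without 1 library. Gene ends (13.0) had 10.25 at the stricter q and 8 by summit, and 12 to 14 without 1 library. Gene bodies (109.25) had 62.25 at the stricter q and 83.5 at equal length, and 105 to 114.3 without 1 library. The outside (247.5) had 124.75 at the stricter q and 145.75 within 50 kb, and 226 to 284 without 1 library. By construction, the lower values count fewer peaks, narrower placement or less DNA, and the higher densities ask for a peak in fewer libraries. The median gene-end percentile (96.2) was 95.9 to 96.6 without 1 library. By summit it gave no median, since Meis3 has no summit in its windows. The Meis2 value by summit, 49.3, rested on replicates 1 and 4 only, and that of Pbx2, 90.8, on replicate 1 alone. No paired analysis was possible because the libraries form 1 group. Depth is unknown, gene ends include 3′ ends, windows follow the outermost annotated coordinates, and broad peaks join neighbouring genes into 1 region.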
